A study of Danio rerio with 9 samples.

Results

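The genes described here are the cytokine, chemokine and interferon signalling genes of the zebrafish ventricle, followed across 3 adult genotypes. They were chosen by name: symbols of interleukins and colony-stimulating factors, chemokines, tumor necrosis factor (TNF) family members, interferons, their receptors, JAK kinases, STAT factors, SOCS inhibitors, interferon regulatory factors, interferon-induced effectors, NF-kB subunits and toll-like receptors were taken. A gene also needed at least 10 counts in at least 3 libraries. Apart from csf1ra, csf1rb and cxcl12a, which were left out, 272 of 30628 genes in the table carried such a name. Of these, 188 reached the count minimum, whereas 84 did not. The study compared RNA from wild-type (WT) fish, from mtorxu015/+ fish that carry 1 mutant allele of the kinase gene mtor, and from Tg(cmlc2:tfeb) fish that carry a transgene of the transcription factor gene tfeb under the cardiomyocyte promoter cmlc2. Each group had 3 libraries, each library was made from 5 pooled ventricles of fish aged 6 months, and no group carried a further allele or agent in the labels. The transgene is driven in cardiomyocytes, whereas the RNA came from all cells of the ventricle, and the WT column headers carry a 9M tag whose meaning is not given in the sources used here.

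Cytokines are secreted signals that bind receptors on the cell surface. Many of these receptors activate JAK kinases, which phosphorylate STAT factors, and SOCS proteins then damp the same receptors. Type I interferon acts through Stat2 and Irf9 to induce antiviral effectors such as viperin (rsad2) and the Mx GTPases, while toll-like receptors and TNF receptors act mainly through NF-kB. Chemokines are small cytokines that guide cell migration through G protein-coupled receptors. In the zebrafish heart, such signals are known from work on leukocyte recruitment, coronary vessel growth and regeneration after injury.

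Library totals were 35935580 to 40733204 counts in WT, 36905561 to 45273885 in mtorxu015/+ and 35440229 to 43790575 in Tg(cmlc2:tfeb). Values below are normalized counts, which are counts scaled to a common library size, and libraries are given in the order of replicates 1, 2 and 3. The transgene was evident in the tfeb counts: 2169, 1654 and 1707 in WT and 22103, 26435 and 8783 in Tg(cmlc2:tfeb). The mtor counts were 6601, 3970.3 and 2522 in WT, 6165, 7294 and 5389 in mtorxu015/+ and 1899.6, 1904 and 1871 in Tg(cmlc2:tfeb), so the libraries labelled mtorxu015/+ did not hold less mtor RNA than WT. Counts of myh6, an atrial myosin gene, were high in WT replicate 3 and Tg(cmlc2:tfeb) replicate 1 (30864 and 46764, against 3938 to 8923 in the other 7 libraries), and the cardiomyocyte gene tnnt2a was at 41999.5 and 44694 in Tg(cmlc2:tfeb) replicates 2 and 3 against 186731 to 254003 elsewhere. The 7 cardiomyocyte markers measured summed to 48520 to 51900 counts per 1000000 (CPM) in WT and 34740 to 40030 in Tg(cmlc2:tfeb), with cmlc1 and nppa called lower, and none of the 9 libraries lacked them. All 9 markers of cycling cells were called higher in Tg(cmlc2:tfeb) (median summed level 37.4 CPM in WT, 35.12 in mtorxu015/+ and 155 in Tg(cmlc2:tfeb)), and their part in the results below was not tested.

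The signalling genes were called in Tg(cmlc2:tfeb) ventricles about as often as genes at large, and none was called in mtorxu015/+. A gene was called where the adjusted p was below 0.05 and the change at least 1.5-fold. Of 187 genes tested, 27 (14.4%) were called between Tg(cmlc2:tfeb) and WT, beside 14.9% of all 21216 genes tested, a share near the background that is not a result about these genes. Higher were 10 (5.35%, background 7.41%) and lower were 17 (9.09%, background 7.49%). Log2 fold changes had a median of 0.07 among the signalling genes and of 0.00 among all genes. The 3 transgenic libraries lay wholly above or below the 3 WT libraries for 67 genes (35.8%, background 42.0%). The count of lower genes was 10 without Tg(cmlc2:tfeb) replicate 2, and also 10 when WT replicate 3 and Tg(cmlc2:tfeb) replicate 1 were left out together, while the count of higher genes was then 8 and 9. In bulk RNA, fewer cells of a type and less RNA per cell cannot be told apart.

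**Figure D1:**
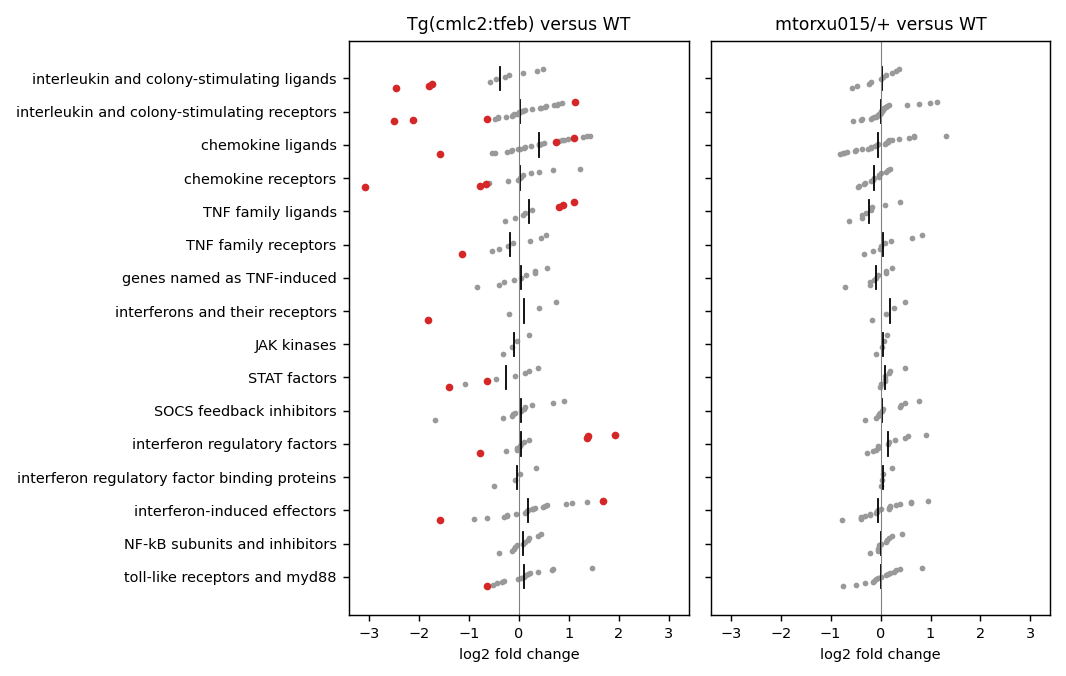
Log2 fold change of each signalling gene tested against WT, by role, in Tg(cmlc2:tfeb) (left) and mtorxu015/+ (right). Red points are called genes, grey points are not called and black bars are medians of a role; 27 points are red on the left and 0 on the right.

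Among the transducers of type I interferon, stat2 fell in the transgenic ventricles. Stat2 is part of the complex formed after type I interferon. Its normalized counts (stat2, ENSDARG00000031647, chromosome 6, 39123544 to 39160422) were 5680.0, 5993 and 6988 in WT, 7306, 8108 and 5638 in mtorxu015/+ and 1847, 2797 and 2369 in Tg(cmlc2:tfeb). Every transgenic library was below every other library, and the difference was 2.66-fold (log2 fold change -1.41 ± 0.17, adjusted p = 0.000742, where ± gives the SE here and below).

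The stat3 gene encodes the main transducer of interleukin 6 family receptors. Its counts (stat3, ENSDARG00000022712, chromosome 3, 17030665 to 17107445) were 2459, 2853 and 2560.4 in WT, 4235, 2944 and 3819.7 in mtorxu015/+ and 1876, 1509 and 1647 in Tg(cmlc2:tfeb), so that the mtorxu015/+ libraries lay above WT and the transgenic libraries below. The fall in Tg(cmlc2:tfeb) was called (log2 fold change -0.65 ± 0.14, adjusted p = 0.0103), but lay below 1.5-fold without WT replicate 2 (log2 fold change -0.58) or without Tg(cmlc2:tfeb) replicate 2 (-0.57). The difference in mtorxu015/+ did not pass adjustment (log2 fold change 0.48, unadjusted p = 0.00621, adjusted p = 0.495). The direct test between the 2 lines gave a log2 fold change of -1.13 (adjusted p = 0.000649).

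None of the 4 JAK genes was called (background 14.9%), and their log2 fold changes in Tg(cmlc2:tfeb) ran from -0.33 for jak3 to 0.20 for jak2a. Among the 11 SOCS genes, which encode feedback inhibitors, none was called either (background 14.9%). With so few genes, these counts are not a result about either class. The most variable was socs3a, a STAT3 target in mammals: 4025, 7110.5 and 6727 in WT, 780.2, 5988 and 7667 in mtorxu015/+ and 943, 1469 and 3192 in Tg(cmlc2:tfeb). All 3 transgenic libraries were below WT, but replicate 1 was the lowest library in each group and the difference did not pass the test (log2 fold change -1.68 ± 0.71, adjusted p = 0.122). It passed in a fit of WT and Tg(cmlc2:tfeb) alone (adjusted p = 0.0348). The count of socs2 was 277, 276 and 238 in WT, 549, 489 and 316 in mtorxu015/+ and 579, 314 and 371 in Tg(cmlc2:tfeb). Both lines lay above WT without overlap, yet neither difference passed by edgeR (adjusted p = 0.084 for Tg(cmlc2:tfeb) and 0.523 for mtorxu015/+). With DESeq2 the Tg(cmlc2:tfeb) difference was called (adjusted p = 0.0486).

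**Figure D2:**
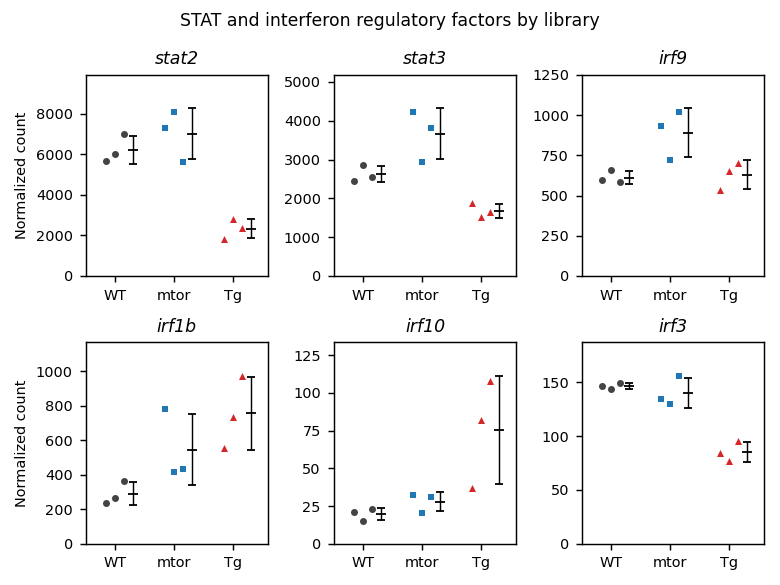
Normalized counts of the STAT genes stat2 and stat3 and of 4 interferon regulatory factor genes in each library. Coloured points are the 3 libraries of a group in replicate order and black bars are the group mean ± SD; stat2, stat3 and irf3 sit lower and irf1b and irf10 higher in the transgenic libraries (Tg) than in WT.

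Of the interferon regulatory factor genes, irf1b and irf10 were among those higher in Tg(cmlc2:tfeb), and irf3 was lower. Irf1 is an interferon-inducible activator of immune genes. Counts of irf1b (ENSDARG00000043249, chromosome 21, 45626136 to 45633317) were 237, 268 and 363 in WT and 556, 737 and 973 in Tg(cmlc2:tfeb), a 2.61-fold rise (log2 fold change 1.38 ± 0.29, adjusted p = 0.00931). The mtorxu015/+ libraries, at 783, 416 and 436, were also above all WT libraries, but without a call (log2 fold change 0.91, adjusted p = 0.518). Counts of irf10 (ENSDARG00000027658, chromosome 23, 642001 to 653333), a factor that human and mouse lack, were 20.9, 14.9 and 22.9 in WT, 32.05, 20.4 and 31.0 in mtorxu015/+ and 36.8, 81.9 and 108 in Tg(cmlc2:tfeb). The transgenic libraries were all higher, with replicate 1 the lowest of them (log2 fold change 1.93 ± 0.41, adjusted p = 0.00941). The annotated span of irf10 overlaps that of BX323461.1, so reads may have been split between them.

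In the opposite direction, irf3 (ENSDARG00000076251, chromosome 12, 4580372 to 4598237), which is activated downstream of viral nucleic acid sensors, was at 147, 144 and 149 in WT, 135, 130.1 and 156 in mtorxu015/+ and 84.6, 76.6 and 95.3 in Tg(cmlc2:tfeb) (log2 fold change -0.78 ± 0.14, adjusted p = 0.00425). Every transgenic library was lower. Counts of irf7, the inducible amplifier of type I interferon, were 167, 186 and 172 in WT and 159.9, 183 and 191 in Tg(cmlc2:tfeb) and overlapped. Those of irf8, a macrophage lineage factor, overlapped as well (128, 146 and 198 and 129.9, 125 and 138). Counts of irf9, the DNA-binding partner of Stat2, were 598, 657 and 581 in WT, 930.5, 724 and 1021 in mtorxu015/+ and 532, 656 and 703 in Tg(cmlc2:tfeb), so that only the mtorxu015/+ libraries lay above WT, with no call (adjusted p = 0.455). The 4 genes of Irf2 binding proteins held no call (background 14.9%).

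Ligands of the interferon family were barely detected. The type I interferon gene ifnphi1 was at 15.7, 10.3 and 16.4 in WT, 27.6, 13.9 and 18.8 in mtorxu015/+ and 23.9, 21.8 and 25.8 in Tg(cmlc2:tfeb). The transgenic libraries were above WT, and within the range of mtorxu015/+, and the difference from WT did not pass (adjusted p = 0.157). The type II gene ifng1 stayed below the count minimum, with at most 3 counts in a library. Among receptors, ifnlr1 (ENSDARG00000087131, chromosome 16, 52343905 to 52371175), the counterpart of the mammalian interferon lambda receptor, fell 3.56-fold, from 53.4, 54.0 and 58.9 in WT to 23.1, 15.7 and 6.72 in Tg(cmlc2:tfeb), against 66.3, 63.2 and 49.8 in mtorxu015/+ (log2 fold change -1.83 ± 0.35, adjusted p = 0.00645). The 3 WT libraries were close to each other and the transgenic libraries were well below them. The interferon gamma receptor chain genes ifngr1l (0.39 ± 0.10, adjusted p = 0.0201) and ifngr2 (-0.21 ± 0.09, adjusted p = 0.114) had log2 fold changes below the 1.5-fold minimum.

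Of 21 interferon-induced effector genes tested, 1 was lower, 1 was higher and 19 were not called (background 14.9% called), with a median log2 fold change of 0.17. The lower gene was ifi45 (ENSDARG00000017489, chromosome 13, 37605896 to 37608441), at 2212, 2287 and 2818 in WT, 2144, 1840.3 and 1611 in mtorxu015/+ and 509.5, 849 and 1071 in Tg(cmlc2:tfeb) (log2 fold change -1.59 ± 0.24, adjusted p = 0.00191). The transgenic libraries were the lowest, and the mtorxu015/+ libraries lay between them and WT without a call (adjusted p = 0.737). The higher gene was ifit9 (ENSDARG00000008098, chromosome 12, 17033494 to 17035339), at 4.19, 2.30 and 7.63 in WT, 8.84, 8.36 and 10.3 in mtorxu015/+ and 10.3, 18.3 and 17.9 in Tg(cmlc2:tfeb) (log2 fold change 1.68 ± 0.47, adjusted p = 0.0326). With so few counts, its call was lost when WT replicate 1 or 2, or Tg(cmlc2:tfeb) replicate 2 or 3, was left out (adjusted p = 0.105, 0.104, 0.11 and 0.0871), and with DESeq2 (0.0591).

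Classical antiviral genes varied widely among the transgenic libraries. Counts of rsad2 were 43.6, 336 and 119 in Tg(cmlc2:tfeb) against 96.3, 79.2 and 85.0 in WT and 72.9, 52.0 and 101 in mtorxu015/+. The highest transgenic library was 7.71 times the lowest and the difference did not pass the test (log2 fold change 0.94 ± 0.59, adjusted p = 0.285), whereas without Tg(cmlc2:tfeb) replicate 1 rsad2 was called higher (log2 fold change 1.40, adjusted p = 0.0481). The ubiquitin-like modifier isg15 was at 25.6, 96.7 and 91.9 in Tg(cmlc2:tfeb) against 83.7, 88.4 and 91.6 in WT. The GTPase gene mxa was at 19.7, 58.4 and 37.0 against 59.7, 56.3 and 63.2, and mxe at 47.0, 132 and 70.6 against 52.3, 47.1 and 74.2. For isg15 and mxa, replicate 1 was the low transgenic library and replicate 2 the high one, as for rsad2 and mxe. Counts of ifit16 were 40.2, 104 and 79.6 in Tg(cmlc2:tfeb) and 35.6, 33.3 and 17.4 in WT, which did not overlap, and the gene was called with DESeq2 (adjusted p = 0.0404) or without Tg(cmlc2:tfeb) replicate 1 (0.0383) but not in the main test (0.0704). The RNA sensor ifih1 was at 289, 304 and 329 in WT, 411, 424 and 369 in mtorxu015/+ and 377, 386 and 345 in Tg(cmlc2:tfeb). Both lines were above WT in every library, without a call (adjusted p = 0.0726 for Tg(cmlc2:tfeb) and 0.416 for mtorxu015/+).

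**Figure D3:**
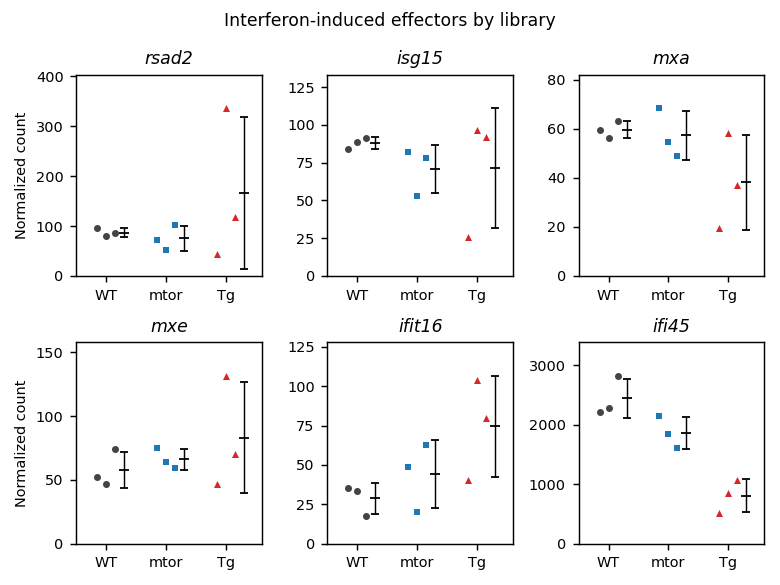
Normalized counts of 6 interferon-induced effector genes in each library. Points are libraries in replicate order and black bars are the group mean ± SD; the transgenic libraries (Tg) span 43.6 to 336 for rsad2, whereas ifi45 spans 510 to 1071 in them and 2212 to 2818 in WT.

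A list of other interferon-induced and nucleic acid sensing genes outside the named families held 24 tested genes, of which 2 were higher (background 7.41%) and 3 lower (background 7.49%) in Tg(cmlc2:tfeb), with a median log2 fold change of 0.07. The lower genes belong to antigen processing, as does tap1, which was called higher. The immunoproteasome subunit genes psmb8a and psmb9a and the peptide transporter gene tap2a lie beside each other on chromosome 19, and the annotated span of psmb8a covers the other 2 genes. Counts of psmb8a were 225, 176 and 116 in WT, 404, 159.8 and 284 in mtorxu015/+ and 20.5, 11.3 and 15.7 in Tg(cmlc2:tfeb) (log2 fold change -3.43 ± 0.42, adjusted p = 0.000726). Those of psmb9a were 44.0, 43.6 and 62.2 in WT and 8.55, 0 and 3.36 in Tg(cmlc2:tfeb), and those of tap2a 171, 165 and 236 and 81.2, 26.1 and 35.9. All 3 genes were far lower in each transgenic library than in any WT library. The higher genes were gbp2, an interferon-inducible GTPase gene (log2 fold change 1.29 ± 0.21, adjusted p = 0.00305), and tap1 (log2 fold change 0.75 ± 0.16, adjusted p = 0.00944), with all transgenic libraries above WT.

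Growth factors of the myeloid lineage were among the largest falls. Csf1a and Il34 are ligands of the receptor that maintains macrophages, and Csf3a drives granulocyte production. Counts of csf1a (ENSDARG00000075343, chromosome 11, 23265157 to 23297192) were 106, 73.5 and 88.3 in WT, 42.0, 72.5 and 76.99 in mtorxu015/+ and 5.13, 25.2 and 17.9 in Tg(cmlc2:tfeb), a 5.54-fold fall (log2 fold change -2.47 ± 0.46, adjusted p = 0.00534). Those of csf3a (ENSDARG00000102211, chromosome 12, 10631266 to 10637172) were 272, 369 and 334 in WT, 394, 523 and 347 in mtorxu015/+ and 63.3, 96.7 and 121 in Tg(cmlc2:tfeb), a 3.49-fold fall (log2 fold change -1.80 ± 0.24, adjusted p = 0.00109). For both genes no transgenic library came near a WT library. Counts of il34 overlapped (193, 272 and 215 in WT and 186, 172 and 232 in Tg(cmlc2:tfeb), adjusted p = 0.377), and those of the granulocyte receptor csf3r did as well (72.2, 126 and 102 and 101, 101 and 68.4).

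Beside these falls, 15 macrophage markers summed to 316 to 369 CPM in WT, 320 to 387 in mtorxu015/+ and 280 to 335 in Tg(cmlc2:tfeb). In Tg(cmlc2:tfeb), 2 of 15 were called lower (marco and c1qc, background 7.49%). The ranges overlapped through Tg(cmlc2:tfeb) replicate 1 (335), while replicates 2 and 3 (280 and 283) lay below every WT library. Log2 fold changes were below 0 for 12 markers and above 0 for 3, with a median of -0.29. The 8 genes listed as neutrophil markers summed to 18.6 to 20.7 CPM in WT, 16.8 to 29.5 in mtorxu015/+ and 15.2 to 25.0 in Tg(cmlc2:tfeb). Of that list, cpa5 was called lower and mmp9 higher, and 5 other tested genes were not called. Whether cpa5 and mmp9 follow neutrophils in these ventricles was not tested. The part of these cells in the changes of csf1a and csf3a was not tested.

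Of the other interleukin ligands, only il21, a cytokine of helper T cells in mammals, was called. It was at 13.6, 6.89 and 8.72 in WT, 12.2, 13.9 and 10.3 in mtorxu015/+ and 2.56, 1.74 and 4.48 in Tg(cmlc2:tfeb) (log2 fold change -1.74 ± 0.49, adjusted p = 0.0332). These are a handful of counts, and the call was lost without WT replicate 1 or 3 or Tg(cmlc2:tfeb) replicate 1 or 2 (adjusted p = 0.129, 0.0732, 0.103 and 0.125) and with DESeq2 (0.0856). Counts of il15, which sustains lymphocytes, were 315, 318 and 296 in WT and 204, 224 and 245 in Tg(cmlc2:tfeb). The groups did not overlap, but the fall was under 1.5-fold (log2 fold change -0.47 ± 0.14, adjusted p = 0.0468). The gene of the inflammatory cytokine interleukin 1 beta (il1b) was at 149.7, 158 and 185 in WT, 155, 165 and 177 in mtorxu015/+ and 153, 132 and 118 in Tg(cmlc2:tfeb). Its ranges overlapped and no difference passed the test (log2 fold change -0.29 ± 0.14, adjusted p = 0.171 in Tg(cmlc2:tfeb), and 0.01, adjusted p = 0.995 in mtorxu015/+). The il6 gene was at 0 in 5 libraries and never above 1 count, so no difference was detectable at this depth. The same holds for tnfa and il10, with at most 2 and 1 counts. Counts of cxcl8a reached at most 10 and those of il11a at most 9.

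Among 26 interleukin and colony-stimulating factor receptor genes, 3 were lower and 1 was higher in Tg(cmlc2:tfeb), a share near the background of 14.9%. The il11ra gene encodes the specific receptor chain of interleukin 11, which signals through the shared subunit encoded by il6st. Its counts (ENSDARG00000026736, chromosome 10, 13305610 to 13396720) were 1652, 1599 and 1767 in WT, 1555, 1729 and 1791 in mtorxu015/+ and 1021, 993 and 1218 in Tg(cmlc2:tfeb). Each transgenic library was below each WT library (log2 fold change -0.64 ± 0.10, adjusted p = 0.0023), although the fall was under 1.5-fold without Tg(cmlc2:tfeb) replicate 2 (log2 fold change -0.58). The il6st gene was at 5099, 5414 and 5045 in WT, 5588, 5288 and 6498 in mtorxu015/+ and 5473, 4598 and 4495 in Tg(cmlc2:tfeb), and these overlapped. The il1rapl1b gene (ENSDARG00000104853, chromosome 11, 44400864 to 44409856), whose mammalian counterpart encodes a synaptic protein of the interleukin 1 receptor family, was at 29.3, 18.4 and 22.9 in WT, 19.9, 17.6 and 25.4 in mtorxu015/+ and 5.13, 2.61 and 4.48 in Tg(cmlc2:tfeb) (log2 fold change -2.50 ± 0.39, adjusted p = 0.00244). All 3 transgenic libraries were lower by far. The annotated span of il1rapl1b overlaps that of gnb4b, so reads may have been split between them.

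Its paralog il1rapl1a was not called in Tg(cmlc2:tfeb) (1136, 1456 and 1282 in WT and 1346, 1235 and 1428 in Tg(cmlc2:tfeb)). In mtorxu015/+ it was at 925, 975 and 737, below all WT libraries, with the smallest p of any of these genes in that line (unadjusted p = 0.00164), but without a call (adjusted p = 0.415). The soluble decoy receptor gene il22ra2 (ENSDARG00000039439, chromosome 13, 23623346 to 23630027) was at 9.42, 6.89 and 17.4 in WT, 14.4, 10.2 and 10.3 in mtorxu015/+ and 3.42, 1.74 and 2.24 in Tg(cmlc2:tfeb) (log2 fold change -2.13 ± 0.52, adjusted p = 0.0186). This call rests on few counts and was lost without WT replicate 3, Tg(cmlc2:tfeb) replicate 2 or Tg(cmlc2:tfeb) replicate 3 (adjusted p = 0.0786, 0.0774 and 0.0552).

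The higher receptor gene was il15ra (ENSDARG00000069311, chromosome 4, 25558849 to 25576713), whose product presents interleukin 15 to lymphocytes. It was at 35.6, 36.7 and 33.8 in WT, 39.8, 26.9 and 37.6 in mtorxu015/+ and 76.9, 64.4 and 88.5 in Tg(cmlc2:tfeb), 2.16-fold higher (log2 fold change 1.11 ± 0.22, adjusted p = 0.00745). The transgenic libraries stood clear of all others, and the call was lost only without WT replicate 3 and Tg(cmlc2:tfeb) replicate 1 together (adjusted p = 0.0631). The gene il2rb, which encodes the chain shared by interleukin 2 and 15 receptors, was at 249, 299.7 and 255 in WT and 319, 381 and 452 in Tg(cmlc2:tfeb) and was under 1.5-fold (log2 fold change 0.52 ± 0.16, adjusted p = 0.046). Markers of NK-like cells summed to 0.675 to 1.33 CPM in WT, 0.553 to 0.904 in mtorxu015/+ and 2.16 to 2.78 in Tg(cmlc2:tfeb), with nkl.4 and prf1.2 called higher. Those of T cells summed to 2.26 to 3.19 CPM in WT and 3.26 to 5.49 in Tg(cmlc2:tfeb), with none called. Their part in the il15ra rise was not tested.

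The largest fold change among the 27 called genes was in a chemokine receptor. Counts of ccr11.1 (ENSDARG00000070755, chromosome 16, 7697878 to 7699207), a chemokine receptor gene, were 58.6, 101 and 54.5 in WT, 71.8, 78.0 and 80.8 in mtorxu015/+ and 5.13, 7.84 and 12.3 in Tg(cmlc2:tfeb), 8.55-fold lower (log2 fold change -3.10 ± 0.36, adjusted p = 0.000522). No transgenic library came near any of the other 6 libraries. Among receptors of the Cxcr3 family, known in zebrafish for macrophage migration, cxcr3.1 and cxcr3.2 were called lower and cxcr3.3 was not called. Counts of cxcr3.1 (ENSDARG00000007358, chromosome 16, 11853212 to 11859309) were 566, 614 and 644 in WT and 374, 346 and 437 in Tg(cmlc2:tfeb) (log2 fold change -0.66 ± 0.12, adjusted p = 0.00468), and the fall was under 1.5-fold without Tg(cmlc2:tfeb) replicate 2 (log2 fold change -0.58). Counts of cxcr3.2 (ENSDARG00000041041, chromosome 16, 11818126 to 11825303) were 49.2, 57.4 and 74.2 and 41.9, 36.6 and 25.8 (log2 fold change -0.78 ± 0.25, adjusted p = 0.0492). That call stood at the threshold and was lost without any 1 of the 6 libraries, WT and Tg(cmlc2:tfeb) replicates 1 to 3 (adjusted p = 0.0515 to 0.162). For the neighbouring cxcr3.3 the log2 fold change was small (-0.22 ± 0.12, adjusted p = 0.199), although its groups did not overlap.

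The chemokine Cxcl12 and its receptor Cxcr4 guide migrating cells and, in zebrafish, coronary vessel formation. Counts of cxcl12b (ENSDARG00000055100, chromosome 22, 26929554 to 26945493) were 2389.9, 1469.6 and 1636 in WT, 1368, 1318 and 1229 in mtorxu015/+ and 521, 712 and 602 in Tg(cmlc2:tfeb). The transgenic libraries were all below WT (log2 fold change -1.58 ± 0.18, adjusted p = 0.000508), with the smallest p among these genes, and the mtorxu015/+ libraries lay just below WT without a call (log2 fold change -0.49 ± 0.18, adjusted p = 0.569). The paralog cxcl12a, which was not among the genes chosen, was at 568, 548 and 463 in WT and 554, 470.3 and 499.9 in Tg(cmlc2:tfeb) and overlapped. The receptor gene cxcr4a was at 20.9, 27.6 and 12.0 in WT and 65.8, 52.2 and 21.3 in Tg(cmlc2:tfeb), with no call (log2 fold change 1.21 ± 0.45, adjusted p = 0.0859), but was called higher without Tg(cmlc2:tfeb) replicate 3 (log2 fold change 1.55, adjusted p = 0.0246). Its paralog cxcr4b was at 189, 478 and 509, 138, 299 and 413 and 156, 287 and 337 in WT, mtorxu015/+ and Tg(cmlc2:tfeb), and replicate 1 was the lowest library of each group. Some markers of other cells moved beside the fall of cxcl12b. The 3 smooth muscle markers summed to 133 to 162 CPM in WT and 56.9 to 69.8 in Tg(cmlc2:tfeb). Of these, acta2 was called lower (log2 fold change -2.95), whereas the others were not called (-0.326 and -0.135). The 10 fibroblast and epicardial markers summed to 414 to 454 and 523 to 661 CPM, with fn1a, tcf21 and postnb called higher. The 8 endothelial markers summed to 798 to 883 and 888 to 906 CPM, with none called. The part of these cells in the fall of cxcl12b was not tested.

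A pair of CC chemokine genes was higher in Tg(cmlc2:tfeb). Counts of ccl38.6 (ENSDARG00000041923, chromosome 20, 38257766 to 38291952) were 36.6, 42.5 and 50.2 in WT, 24.3, 29.7 and 23.5 in mtorxu015/+ and 82.9, 89.7 and 105 in Tg(cmlc2:tfeb). The 3 groups did not overlap, with mtorxu015/+ lowest and Tg(cmlc2:tfeb) highest. The rise in Tg(cmlc2:tfeb) was called (log2 fold change 1.101 ± 0.20, adjusted p = 0.00536), the difference of mtorxu015/+ from WT was not (adjusted p = 0.495), and the direct test between the lines was (log2 fold change 1.83, adjusted p = 0.000458). Its annotated span overlaps those of ccl38a.4 and ccl38a.5, so reads may have been split between them. Counts of ccl36.1 (ENSDARG00000105263, chromosome 7, 39706004 to 39707161) were 71.2, 111 and 90.5 in WT and 135, 137 and 187 in Tg(cmlc2:tfeb), with no overlap (log2 fold change 0.75 ± 0.22, adjusted p = 0.039). That call was lost without WT replicate 1 or 3 (adjusted p = 0.12 and 0.0976) or any 1 of Tg(cmlc2:tfeb) replicates 1, 2 and 3 (0.0506, 0.0638 and 0.114). Over the 24 chemokine ligand genes tested, the median log2 fold change was 0.40. Of these, 2 were called higher (background 7.41%), 1 lower (background 7.49%) and 21 were not called. The summed level of the chemokine ligand genes, cxcl12b included, went the other way. It was 82.1 to 98.3 CPM in WT, 78.3 to 83.2 in mtorxu015/+ and 69.1 to 70.4 in Tg(cmlc2:tfeb). Of these genes cxcl12b had the highest mean over all libraries (1249 normalized counts, followed by ccl25b at 522). The sum therefore does not show a fall of the other ligands. In a list of 12 tested chemokine partner genes, the scavenger receptor gene ackr4b was lower, at 2060.1, 2316 and 2694 in WT, 1606, 2405 and 2292 in mtorxu015/+ and 411, 432 and 602 in Tg(cmlc2:tfeb) (log2 fold change -2.29 ± 0.20, adjusted p = 0.000132). Its paralog ackr4a was higher (27.2, 19.5 and 18.5 in WT and 42.8, 40.9 and 57.2 in Tg(cmlc2:tfeb), log2 fold change 1.098 ± 0.31, adjusted p = 0.0314).

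**Figure D4:**
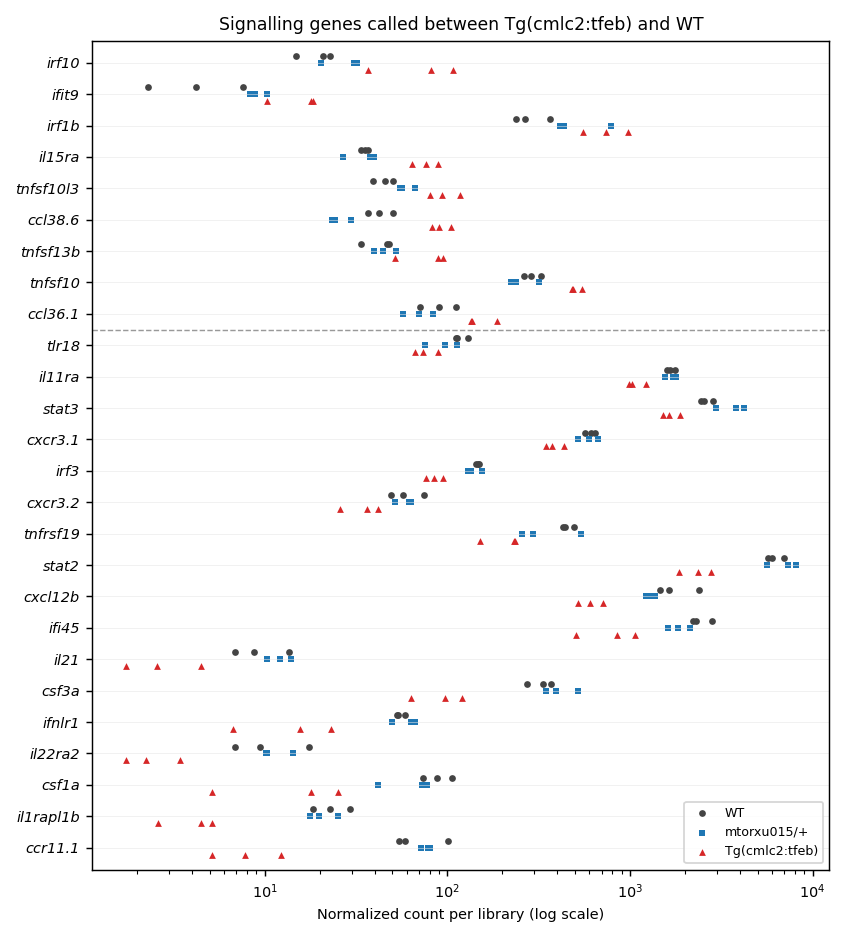
Normalized counts (log axis) of 26 signalling genes called between Tg(cmlc2:tfeb) and WT, ordered by fold change, with the genes higher in Tg(cmlc2:tfeb) above the dashed line. Each point is a library; for ccr11.1, at the bottom, the transgenic libraries hold 5.13 to 12.3 and the other libraries 54.5 to 101.0.

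Of 8 TNF family ligand genes, 3 were higher in Tg(cmlc2:tfeb) and none lower (background 7.41% and 7.49%), and the call of tnfsf13b was lost in 5 of 6 fits without 1 library. The summed level of the 8 genes was 34.5 to 36.7 CPM in WT, 25.93 to 33.97 in mtorxu015/+ and 41.3 to 45.2 in Tg(cmlc2:tfeb). This sum includes the 3 genes called higher and does not show a rise of the other ligand genes. Of the 3, tnfsf10 and tnfsf10l3 encode relatives of the death ligand TRAIL. Counts of tnfsf10 (ENSDARG00000057241, chromosome 24, 26932472 to 26937526) were 262, 325 and 286 in WT, 317, 224 and 238 in mtorxu015/+ and 480.4, 549.5 and 489.8 in Tg(cmlc2:tfeb) (log2 fold change 0.80 ± 0.14, adjusted p = 0.00432). Those of tnfsf10l3 (ENSDARG00000032746, chromosome 21, 30701902 to 30714665) were 50.2, 39.0 and 45.8, 66.3, 54.8 and 56.3 and 117, 80.1 and 94.1 (log2 fold change 1.11 ± 0.20, adjusted p = 0.00509). All transgenic libraries were above all others for both genes, whereas the paralog tnfsf10l overlapped (652, 584 and 673 in WT and 546, 619 and 637 in Tg(cmlc2:tfeb)). The third gene, tnfsf13b (ENSDARG00000012945, chromosome 9, 5325015 to 5337923), encodes the B cell survival factor BAFF and was at 33.5, 47.1 and 48.0 in WT, 44.2, 40.0 and 52.6 in mtorxu015/+ and 88.9, 94.9 and 51.5 in Tg(cmlc2:tfeb) (log2 fold change 0.88 ± 0.27, adjusted p = 0.0454). Its call was lost without WT replicate 1, 2 or 3 (adjusted p = 0.137, 0.0851 and 0.0793) and without Tg(cmlc2:tfeb) replicate 1 or 2 (0.12 and 0.15), and 7 B cell markers summed to 1.66 to 2.22 CPM in WT and 1.58 to 2.01 in Tg(cmlc2:tfeb).

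Of 8 TNF family receptor genes, 1 was lower (background 7.49%) and none higher. Counts of tnfrsf19 (ENSDARG00000041869, chromosome 15, 8235531 to 8309217), an orphan receptor gene in mammals, were 430.2, 441 and 497 in WT, 255, 294 and 542 in mtorxu015/+ and 235, 232 and 150.2 in Tg(cmlc2:tfeb) (log2 fold change -1.14 ± 0.28, adjusted p = 0.0171). The transgenic libraries were lowest, 2 of the mtorxu015/+ libraries lay close to them, and the call was lost without WT replicate 3 (adjusted p = 0.0532) or Tg(cmlc2:tfeb) replicate 3 (0.0502). The genes of the TNF receptors, tnfrsf1a (-0.41 ± 0.09, adjusted p = 0.00894) and tnfrsf1b (-0.54 ± 0.16, adjusted p = 0.0397), had lower log2 counts by less than the 1.5-fold minimum. The second was called without WT replicate 1 (adjusted p = 0.047) or without Tg(cmlc2:tfeb) replicate 3 (0.0234). Counts of tnfrsfa were 1736, 2009 and 1775 in WT and 2707, 2334 and 2466 in Tg(cmlc2:tfeb), a change in the higher direction below the minimum (log2 fold change 0.44 ± 0.10, adjusted p = 0.0115). The TNF gene tnfb itself was at 10.5, 17.2 and 25.1 in WT and 26.5, 11.3 and 4.48 in Tg(cmlc2:tfeb) and overlapped. Of the 9 genes named as TNF-induced, none was called (background 14.9%).

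Among the 26 NF-kB and toll-like receptor genes there was 1 call (background 14.9%). The subunit genes rela (345, 320.3 and 359 in WT and 400.1, 397 and 361 in Tg(cmlc2:tfeb)), relb (1302, 1335 and 1266 and 1161, 1209 and 1325), nfkb1 (325, 356 and 397 and 402, 439 and 398) and nfkb2 (956, 1121 and 1004 and 1159, 1051 and 1133) all had adjusted p values above 0.05. The inhibitor gene nfkbie rose in Tg(cmlc2:tfeb) by less than 1.5-fold, from 198, 214 and 242 to 267, 298 and 325 (log2 fold change 0.44 ± 0.12, adjusted p = 0.0288). Counts of the inhibitor gene nfkbiab were 1341, 3451 and 3675 in WT, 1171, 2958 and 4104 in mtorxu015/+ and 1043, 2069 and 3284 in Tg(cmlc2:tfeb), with replicate 1 lowest in each group. The adaptor gene myd88 was at 157, 157 and 164 in WT and 193, 154 and 176 in Tg(cmlc2:tfeb). The call was tlr18 (ENSDARG00000040249, chromosome 16, 29387675 to 29405009), a toll-like receptor gene of fish, at 112, 129.7 and 113 in WT, 75.1, 96.6 and 113 in mtorxu015/+ and 66.7, 74.0 and 88.5 in Tg(cmlc2:tfeb) (log2 fold change -0.63 ± 0.19, adjusted p = 0.0396). It was lost without WT replicate 1, 2 or 3 (adjusted p = 0.0717, 0.113 and 0.0766) or Tg(cmlc2:tfeb) replicate 1 or 2 (0.112 and 0.107). The double-stranded RNA receptor gene tlr3 (143, 152 and 191 in WT, 101, 109.7 and 146 in Tg(cmlc2:tfeb)) was not called, except without Tg(cmlc2:tfeb) replicate 3 (adjusted p = 0.0377). The flagellin receptor gene tlr5b (411, 352 and 348 and 458, 307 and 329.5) overlapped. Of 28 tested adaptors of these pathways outside the named families, none was called (background 14.9%), and the groups of 8 did not overlap (background 42.0%). A list of 22 tested cytokine receptor partners and STAT regulators held a single call (background 14.9%). It was ghrb, a growth hormone receptor gene (log2 fold change -1.15 ± 0.30, adjusted p = 0.024).

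No signalling gene was called in mtorxu015/+ against WT, in a comparison where edgeR called 5 genes of all tested (0.0236%). At an unadjusted p below 0.05 there were 17 of 187 signalling genes (9.09%, background 7.86%), the smallest adjusted p was 0.415, and neither DESeq2 nor limma-voom called one. In 27 genes (14.4%, background 13.2%) the 3 mtorxu015/+ libraries lay wholly on 1 side of WT. Of the 17, higher were 11 (5.88%, background 4.16%) and lower were 6 (3.21%, background 3.70%). Among the higher were the JAK-STAT genes stat3, socs1a and socs2, the factors irf1b and irf9, and the receptor gene il13ra2, at 29.3, 12.6 and 18.5 in WT and 33.1, 58.5 and 41.3 in mtorxu015/+ (log2 fold change 1.13, unadjusted p = 0.00884, adjusted p = 0.497). The decoy receptor gene tnfrsf11b (osteoprotegerin) was also among them, at 128, 133 and 102 in WT and 181, 162 and 223 in mtorxu015/+. The lower genes included tnfsf12, which encodes the cytokine TWEAK (306, 325 and 325 in WT and 236, 267 and 235 in mtorxu015/+), and the interleukin 10 receptor gene il10ra (129, 125 and 120.0 and 86.2, 107 and 92.0). None of these passes adjustment, and each is given as a value.

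**Figure D5:**
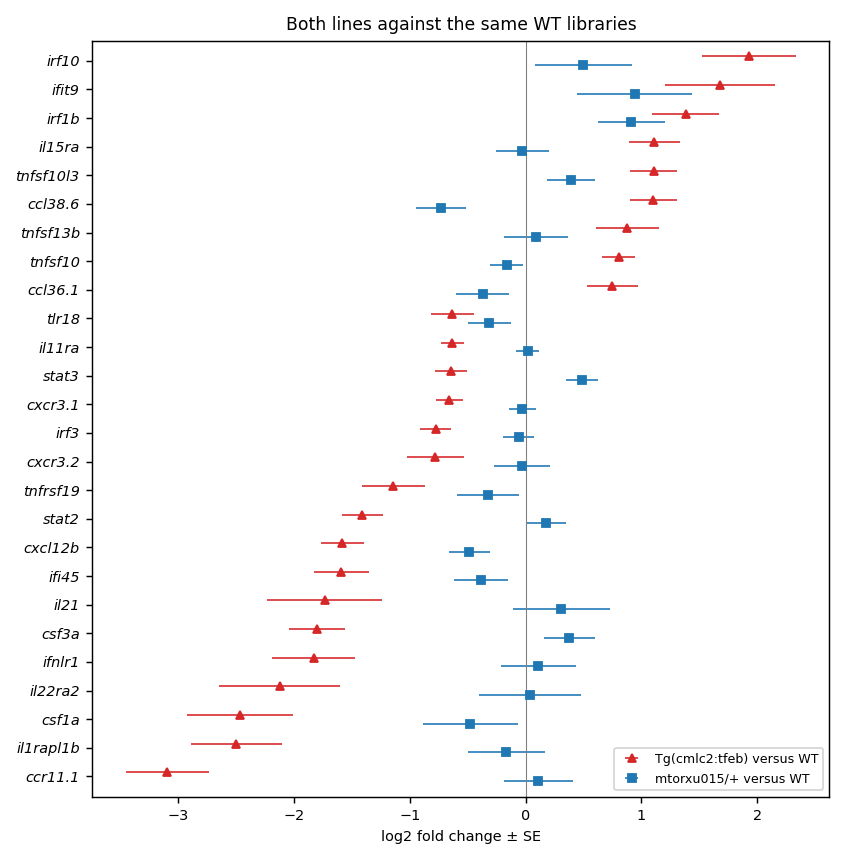
Log2 fold changes ± SE of 26 called signalling genes in Tg(cmlc2:tfeb) (red) and mtorxu015/+ (blue), both against the same 3 WT libraries. In mtorxu015/+ the values run from -0.73 for ccl38.6 to 0.94 for ifit9 and none was called.

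Compared directly, the lines differed in 30 of 187 signalling genes (background 16.0%), 13 higher (6.95%, background 8.09%) and 17 lower (9.09%, background 7.95%) in Tg(cmlc2:tfeb). The count of higher genes was 8 without mtorxu015/+ replicate 2 and 7 without mtorxu015/+ replicate 3. Both comparisons with WT use the same 3 WT libraries. The direct test compares the 2 lines, although WT libraries enter its scaling and spread estimate, as all 9 libraries were in 1 fit. In a fit of the 2 lines alone, 12 genes were higher and 16 lower in Tg(cmlc2:tfeb). Markers of red blood cells also differed between the lines. The 6 erythrocyte marker genes stand under 7 entries, as hbba1 is repeated. These summed to 3510 to 3968 CPM in WT, 2173 to 2795 in mtorxu015/+ and 4592 to 5960 in Tg(cmlc2:tfeb). All 7 entries were called higher between the lines, and 3 were called higher in Tg(cmlc2:tfeb) against WT. None was called in mtorxu015/+ against WT, although all 7 lay below WT there without overlap. Their part in the results was not tested. Genes called here and not against WT included the chemokine gene ccl20b (log2 fold change -0.84 ± 0.20, adjusted p = 0.0135), which was at 341, 249 and 238 in mtorxu015/+ and 182, 135 and 143 in Tg(cmlc2:tfeb), and the TNF receptor gene tnfrsf1b (log2 fold change -0.63 ± 0.16, adjusted p = 0.0197). Both were lower in Tg(cmlc2:tfeb). Higher in Tg(cmlc2:tfeb) were il2rb (log2 fold change 0.60 ± 0.16, adjusted p = 0.0241), il1rapl1a (log2 fold change 0.60 ± 0.13, adjusted p = 0.00862) and the chemokine gene ccl34b.4, at 14.4, 13.0 and 21.6 in mtorxu015/+ and 41.9, 71.4 and 97.5 in Tg(cmlc2:tfeb).

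Position was not used to choose these genes. Of the 17 lower genes, 5 lie on chromosome 16 (ccr11.1, cxcr3.1, cxcr3.2, ifnlr1 and tlr18), where 16 signalling genes were tested. Among all genes of that chromosome, 92 of 799 tested were called, and the share called ran from 10.8% to 18.4% over the chromosomes. No other chromosome held more than 3 called signalling genes. Many genes of the chemokine, ifit, mx and toll-like receptor families are present as several copies, and tlr19 stands among the genes tested under 2 identifiers. Some genes have a second identifier below the count minimum. Among them is cxcr3.1, whose second entry was at 0, 3.44 and 0 in WT, 4.42, 5.57 and 3.76 in mtorxu015/+ and 0, 0.87 and 0 in Tg(cmlc2:tfeb). Where copies are alike, their reads can be exchanged in counting, so the values of single copies may be less certain. How alike these copies are was not examined here.

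For some genes replicate 1 was the lowest library whatever the genotype. In 15 of the 188 signalling genes (7.98%), it was the lowest of all 3 groups, beside 3.96% of all genes tested, and replicate 3 was the highest of all groups in 16 (8.51%, beside 3.69%). Among the 15 were socs3a, nfkbiab and cxcr4b. Replicate 2 was the lowest of all groups in 11 (5.85%, beside 3.18%) and replicate 3 in 3 (1.6%, beside 3.74%). Replicate 1 was the highest of all groups in 10 (5.32%, beside 4.1%) and replicate 2 in 0 (beside 2.87%). Of 18 early response genes listed after these values were seen, 6 were lowest in replicate 1 of each group (fosb, jun, btg2, dusp1, nr4a1 and klf2a) and myca was highest there in each group. The count of nr4a1 was 1064, 1732 and 692 in replicate 1 of WT, mtorxu015/+ and Tg(cmlc2:tfeb) against 2532 to 6061 in the other libraries. The part of this in the spread of socs3a was not tested.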

How the data were processed

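Ventricular RNA of 9 libraries (50-bp paired reads, 5 pooled ventricles each) was sequenced by the authors. The authors deposited 1 table of estimated counts per gene, with Ensembl identifiers and GRCz11 coordinates, and its column headers name scaled TPM. Of the deposited values from 0.5 to 5.5, 58.5% lie within 0.1 of a whole number, and they sum to library-sized totals, so they were treated as estimated counts and rounded to whole numbers. The submitters' processing notes list bcl2fastq 2.17, Trimmomatic 0.36 and STAR 2.5.2b. The study's methods instead name TopHat for alignment and Cufflinks for quantification, which differs from these notes, so the tool that made the table is not settled by the sources used here. The study's Cuffdiff test needs alignments and was replaced by edgeR 4.0.16 (R 4.3.3).

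Genes passing filterByExpr (21216) were scaled by TMM and tested with the quasi-likelihood test, all 9 libraries in 1 fit, with Benjamini-Hochberg adjustment over all genes tested. SE is the absolute log2 fold change divided by the square root of F. Normalized counts are rounded counts brought to the average of the 9 TMM-scaled library sizes, and CPM sums use the same sizes per 1000000. The fit was checked on simulated counts. Values that do not depend on a fit were given as they are, since an exact permutation test of 3 against 3 libraries cannot go below p = 0.1. Alternatives were DESeq2 1.42.0, limma-voom (limma 3.58.1), other scalings and filters, other fold minimums, a replicate block and each library left out. One alternative was chosen after seeing the data: leaving out both libraries with high myh6.

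The genes and lists were chosen with earlier results of these data known. Named genes are those called against WT, a list of canonical members whether called or not, mtor and tfeb, called genes of other pathway lists, and a few chosen after their values were seen: socs2, ifih1, il13ra2, tnfsf12, tnfrsf11b, il10ra, il1rapl1a and genes that differed between the lines. The p-values measure the spread between pooled libraries. The labels do not say whose siblings the WT fish were, and the sex of the pooled fish is not given. Counting is not stated to use strand. Values of a few of these genes are not reported here, although the counts over all signalling genes include them. No sequences were used here, and promoter motifs were not analysed here.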

Additional observations from a re-analysis of the deposited data

How the results depend on the processing

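All 27 calls between Tg(cmlc2:tfeb) and WT kept their direction under every alternative run; 16 were called in each fit that left out 1 library and 14 under every alternative. The count of higher genes (10) was 17 with no fold minimum and 8 to 12 with 1 library left out. The count of lower genes (17) was 11 at 2-fold, 10 to 17 with 1 library left out, and 10 without WT replicate 3 and Tg(cmlc2:tfeb) replicate 1. Between the lines, the higher count (13) was 8 at 2-fold and 7 to 11 with 1 library left out. The lower count (17) was 12 to 21 with 1 library left out. In mtorxu015/+ both counts were 0 under every alternative. DESeq2 called 24 and limma-voom 25 of the 27, and DESeq2 also called 3 genes that edgeR did not. Over both comparisons with WT, values changed sign in 312 of 5248 pairs of gene and alternative. These pairs leave out the 27 calls in Tg(cmlc2:tfeb) and include mtor and tfeb. The causes were not tested.

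The labels do not describe replicate numbers as pairing. Over all genes tested, deviations of same-numbered libraries correlated at -0.024 to 0.089 and those of others at -0.119 to 0.054. Of 9 libraries, 3 correlated best with their own number in both other groups, and these were replicate 1 of each group. Replicate 1 of WT correlated at 0.041 with that of mtorxu015/+ and at 0.04 with that of Tg(cmlc2:tfeb). Those of the 2 lines correlated at 0.089. Correlations over all genes do not show whether a smaller set of genes shares a pattern by replicate number. With the replicate block, 11 genes were higher and 16 lower against WT, 24 of the 27 calls remained (tnfsf13b, cxcr3.2 and il21 were lost), and socs3a (adjusted p = 0.0311), cxcr4a (0.038) and ccl34b.4 (0.0211) were called. Genes with under about 20 counts, such as il21, il22ra2 and ifit9, are limited by depth.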

Other observations

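Among genes of these families that stayed below the count minimum, ifit8 stood out in 1 transgenic library: its normalized counts were 1.71, 40.9 and 2.24 in Tg(cmlc2:tfeb), 5.23, 3.44 and 12.0 in WT and 5.53, 3.72 and 4.69 in mtorxu015/+. The chemokine gene ccl34b.8 was at 0 in all 3 WT libraries, at 2.21, 2.79 and 4.69 in mtorxu015/+ and at 3.42, 3.48 and 5.60 in Tg(cmlc2:tfeb), and ccl34b.9 at 0 in WT, 2.21, 1.86 and 4.69 in mtorxu015/+ and 1.71, 10.4 and 2.24 in Tg(cmlc2:tfeb). These counts are too low for a test.

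The genes lyz and mpx, picked from the 8 listed neutrophil markers, were high in mtorxu015/+ replicate 1. Counts of lyz were 293 there against 21.3 to 74.3 in the other 8 libraries, and those of mpx 106 against 14.6 to 48.7. All 8 markers, lyz and mpx included, summed to 29.5 CPM there and 15.2 to 25.0 CPM in the others. These values do not show a rise of the remaining markers in that library. The neutrophil receptor gene cxcr1 was not raised in that library (85.1, 119 and 136 in mtorxu015/+).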
